A study of Mus musculus with 2 samples.

Results

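Splicing factor and hnRNP genes were examined in 2 sorted populations of mouse dorsal skin cells. The members were all genes with a non-control probe whose gene name in both scanner tables began with Hnrp or Hnrnp, with Sfrs or Srsf and a digit, with Snrp, or with Sf3a or Sf3b. This gave 59 genes with 123 probes, of 27728 genes with 41174 probes on the array. They comprised 20 hnRNP genes, 19 SR or SR-named genes, 12 snRNP protein genes and 8 SF3 genes. The rule itself used names only and no measured value, but it was chosen with earlier results of these data known. Older names were updated through RefSeq accessions, so that 21 of the genes are given here under a newer symbol (Srsf1 for Sfrs1, for example).

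The cells came from dorsal skin of knock-in mice in which an EGFP-ires-CreERT2 cassette was driven from the Lgr5 or from the Lgr6 locus, and in each line the cells brightest for GFP were sorted. The Lgr5-high group is thus from Lgr5-EGFP-ires-CreERT2 mice and the Lgr6-high group from Lgr6-EGFP-ires-CreERT2 mice. Both groups carried a reporter allele, and the age and sex of the mice are not given in the sources used here. Animals were pooled, with 3 mice per sort, and 150 ng of total RNA was amplified and labelled. Both RNAs were hybridised together on each of 2 two-colour arrays, with Lgr6-high RNA in Cy5 on array 1 and in Cy3 on array 2. Whether each array received its own RNA pool is not given in the sources used here, so the arrays were counted as 1 replicate with both dye orientations. No test between the populations is possible with 1 replicate, and every SD below is over the 2 arrays and carries no spread between animals.

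Pre-mRNA splicing is carried out by the spliceosome, whose small nuclear ribonucleoproteins (snRNPs) each hold a small nuclear RNA inside a ring of Sm proteins, together with proteins particular to that RNA. SR proteins bind exonic sequences and mostly favour the use of nearby splice sites, whereas hnRNP proteins coat nascent transcripts and often act against splice site use. The balance between them shapes alternative exon choice. The SF3a and SF3b complexes belong to the U2 snRNP and hold it at the branch point.

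Ratios are log2 of Lgr6-high over Lgr5-high, positive where the Lgr6-high RNA had more. A probe counted as measured if it stood well above background for at least 1 population on both arrays. A gene took the ratio of its brightest measured probe. By this filter 6195 genes of the array and 50 of the 59 members were measured, namely 19 of 20 hnRNP, 14 of 19 SR, 11 of 12 snRNP and 6 of 8 SF3 genes. The 9 others were Hnrnpul2, Srsf3, Srek1, Pnisr, Sugp2, Akap17b, Snrpn, Sf3a2 and Sf3b1. Their probes did not pass, which sets no level for them. Of the measured members, 46 were above background in both populations on both arrays, and the other 4 missed it for 1 population on 1 array.

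A gene was called different by size alone, where its ratio averaged 1 or more on the log2 scale in either direction (2-fold) and reached 0.5 that way on each array. The probes of the 4 members that met this rule are shown in part, since these genes carry the main difference. Each line gives 30 bases of the probe of 60, 5′ to 3′, with a polyadenylation hexamer (AATAAA or ATTAAA) in capitals where the window holds one.

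Snrpg: ctgtgctcagcaagcagtgtccacatccct
Snrpa: tgttagattgtgATTAAAgtgagtttttga
Snrpd3: ggaacatcttccagaagcgaagataatatt
Snrpc: gtttactagatgcatggaaaggaaacttcc

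On mouse build mm9, as the array files place them, the whole probes lie at chr6:86328764-86328823 on the plus strand for Snrpg, at chr7:27972021-27972080 on the minus strand for Snrpa, at chr10:74998027-74998086 on the plus strand for Snrpd3 and at chr17:27988766-27988825 on the plus strand for Snrpc. The files assign each probe to the mRNA of the named gene. The hexamer is the signal for cleavage and polyadenylation of most mRNAs, and of these probes only that of Snrpa holds one. Either hexamer occurred in 8 of 72 measured member probes and in 7.49% of all 41174 probes.

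All 11 measured snRNP protein genes had mean ratios below 0, that is, less signal in the Lgr6-high than in the Lgr5-high RNA, whereas the hnRNP and SR genes lay on both sides of 0. Snrpb2 was the one snRNP gene whose sign turned with the scaling. None of the 50 measured members was called higher in Lgr6-high, against 7.22% of all measured genes. In the other direction 4 members were called higher in Lgr5-high, against 4.79% of all measured genes. All 4 were snRNP protein genes, so that this family had 4 called of 11 and the other families 0 of 39. In either direction 4 of 50 members were called, against 12.0% of all measured genes. limma on the 2 arrays with the same 2-fold minimum also called these 4 members, against 4.92% of all genes in that direction. It called none the other way, against 7.38%, and its spread is only that between hybridisations. No other member reached that minimum, so limma could call no others. The median log2 ratio was -0.92 for the 11 snRNP genes, -0.41 for the 6 SF3 genes, 0.15 for the 14 SR genes, 0.01 for the 19 hnRNP genes and -0.05 for all measured genes.

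**Figure D1:**
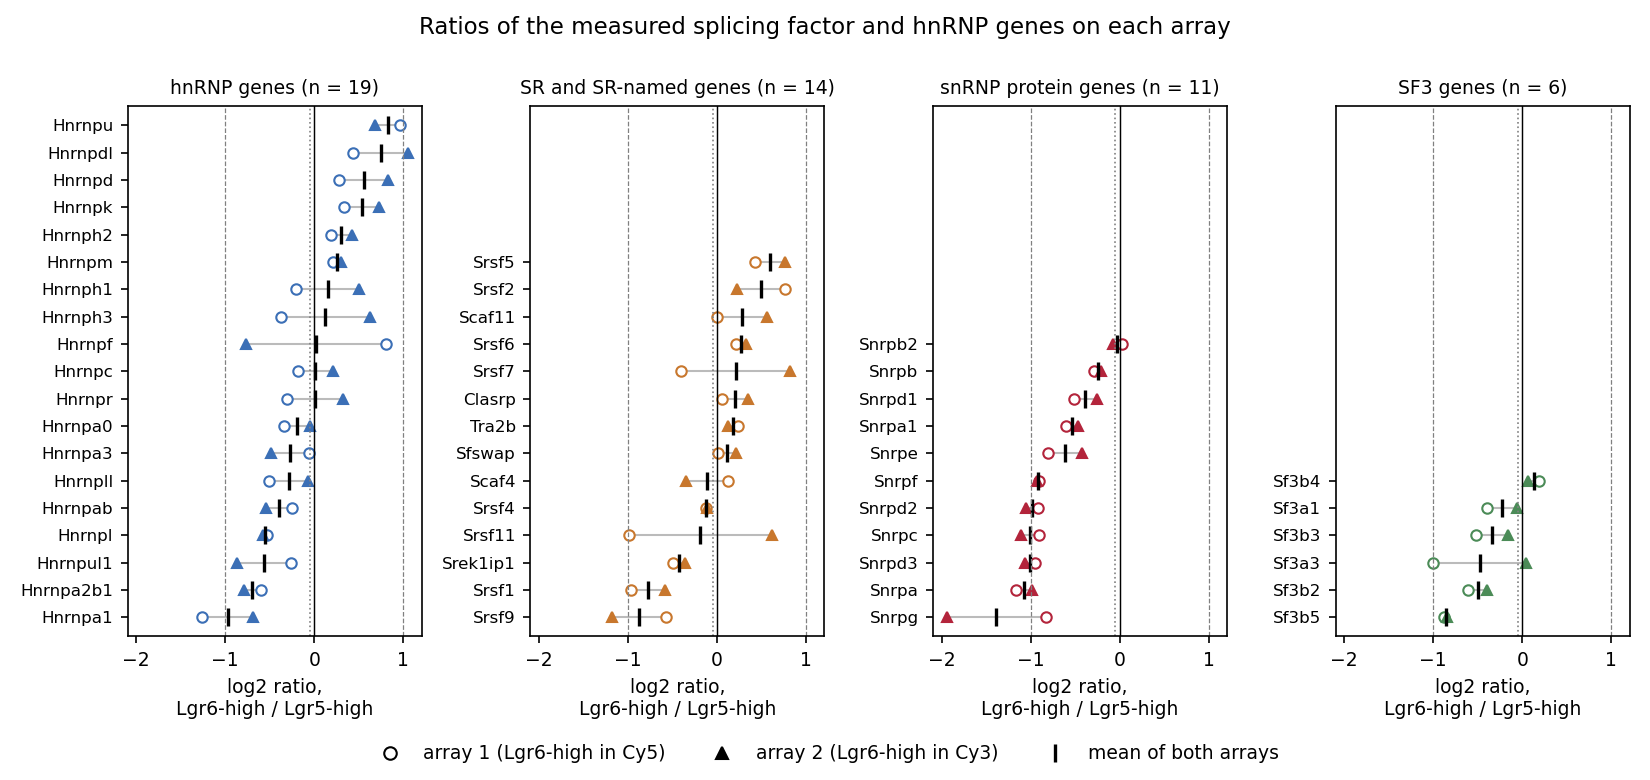
Log2 ratio of Lgr6-high over Lgr5-high for each of the 50 measured members, by family. Open circles are array 1, triangles array 2 and black ticks their mean, dashed lines mark a 2-fold difference and the dotted line the median of all measured genes (-0.05). All 11 snRNP genes have a mean below 0, while the hnRNP means run from -0.97 to 0.82.

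Of the snRNP protein genes, 7 measured ones encode members of the Sm ring (Snrpb, Snrpd1, Snrpd2, Snrpd3, Snrpe, Snrpf and Snrpg), which is common to the U1, U2, U4 and U5 snRNPs. All 7 were below 0 on both arrays, with a median of -0.92, and 2 of them were called. By comparison, 38.7% of all measured genes were below 0 on both arrays.

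Snrpg had the ratio farthest from 0 among the measured members, at -0.82 on array 1 and -1.94 on array 2. Its normalised log2 intensity was 13.03 and 13.59 in the Lgr5-high RNA and 12.21 and 11.64 in the Lgr6-high RNA. The mean ratio was -1.38 ± 0.79 (SD over 2 arrays), 2.61-fold. With normexp on all spots the Snrpg mean was -2.29. The arrays differed more for Snrpg than for any other snRNP gene. The 100 genes of most similar brightness had median ratios of 0.21 on array 1 and -0.73 on array 2, an offset between arrays of the same direction, and its part in the Snrpg value was not tested.

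Snrpd3 measured -0.95 on array 1 and -1.07 on array 2, a mean of -1.01 ± 0.08 and a 2.01-fold difference. Its level was 10.25 and 10.45 in the Lgr5-high RNA and 9.30 and 9.38 in the Lgr6-high RNA. A second measured Snrpd3 probe, placed closer to the start of the transcript, gave -0.84 ± 0.34. Both probes thus pointed the same way, with the second just inside 2-fold.

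Snrpd2 and Snrpf fell just short of the rule. Snrpd2 gave -0.91 and -1.05, with a mean of -0.98 ± 0.10. Snrpf gave -0.90 and -0.93, with a mean of -0.92 ± 0.02, and its second probe -0.98 ± 0.50. Snrpd2 differed from the called Snrpc and Snrpd3 by less than 1 SD of either, so the 2-fold line separates near-equal values here.

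Snrpe followed with -0.81 on array 1 and -0.42 on array 2, a mean of -0.61 ± 0.27. Snrpd1 had -0.51 and -0.26 (mean -0.38 ± 0.18). Snrpb, which encodes the B and B′ proteins of the ring, had -0.28 and -0.21 (mean -0.24 ± 0.05). Ring genes therefore ranged from 1.18-fold for Snrpb to 2.61-fold for Snrpg.

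The proteins particular to the U1 and U2 snRNPs showed a similar range. Snrpa encodes U1-A, which binds a stem-loop of U1 RNA, and measured -1.16 on array 1 and -0.99 on array 2. Its level was 10.56 and 10.47 in Lgr5-high against 9.40 and 9.49 in Lgr6-high, a mean ratio of -1.07 ± 0.12 (2.10-fold). An upstream Snrpa probe gave -0.70 ± 0.12, the same direction at a smaller size.

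Snrpc encodes U1-C, which helps U1 recognise the 5′ splice site. It measured -0.90 and -1.11, with levels of 9.27 and 9.24 in Lgr5-high and 8.36 and 8.13 in Lgr6-high, and a mean of -1.01 ± 0.15 (2.01-fold). Both U1 genes were lower in Lgr6-high on each array. Of the U2 proteins, Snrpa1 (U2-A′) had -0.61 and -0.46 (mean -0.53 ± 0.10), and was above background in Lgr6-high on only 1 array. Snrpb2 (U2-B″) was the member of this family closest to 0, at 0.02 on array 1 and -0.07 on array 2, and its mean was also just above 0 with normexp on all spots and with median centring (0.01 and 0.02). The third U1 protein, U1-70K, is encoded by Snrnp70, which the names used here do not match. It gave -0.14 and -0.22 (mean -0.18), and 0.03 with the scanner's ratios.

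**Figure D2:**
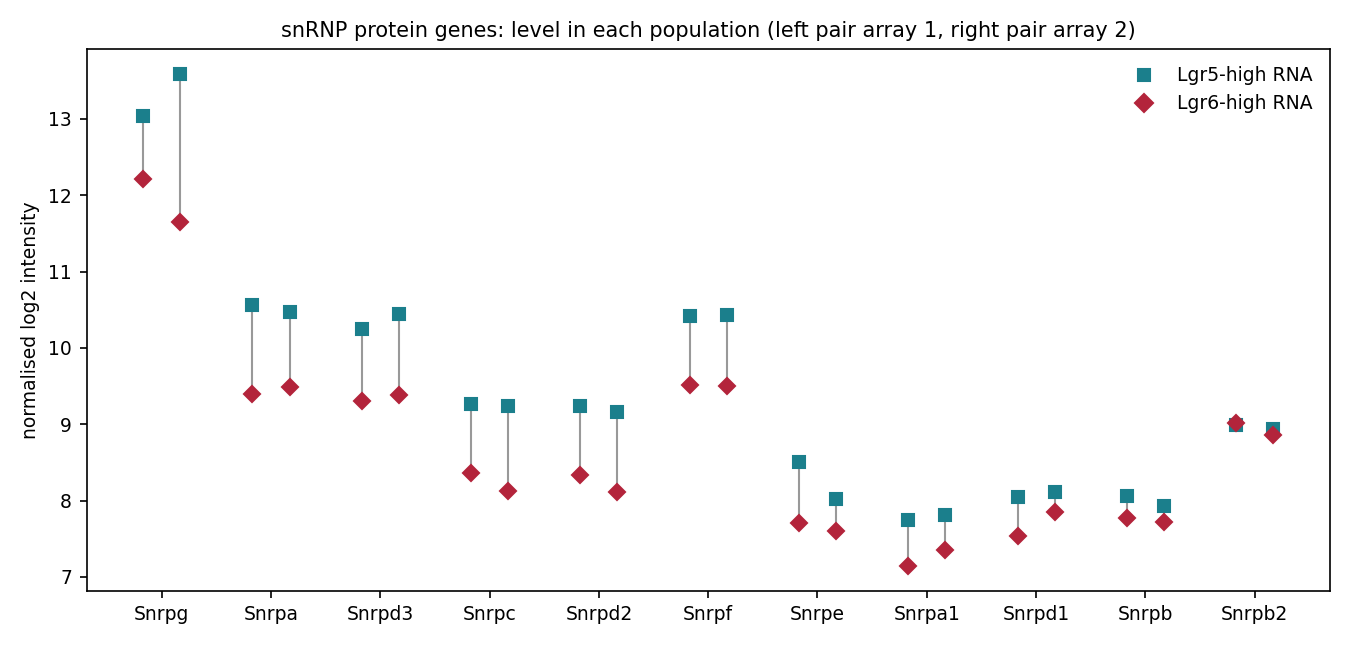
Normalised log2 intensity (vertical axis) of the 11 measured snRNP protein genes in Lgr5-high RNA (squares) and Lgr6-high RNA (diamonds), joined within each array. For 10 of the 11 genes the Lgr6-high value is the lower one on both arrays, Snrpb2 being the exception, and heights are to be compared within a gene only, since probes differ in brightness for the same amount of RNA.

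Counted by probe rather than by gene, all 14 measured snRNP probes had a mean below 0, with a median of -0.88, and 4 of them were called. Subtracting from each snRNP gene the median of the 100 genes closest to it in mean intensity left a median of -0.72, compared with -0.37 for SF3, 0.18 for SR and 0.02 for hnRNP genes. The snRNP median thus stood below that of genes of like brightness.

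The SF3 genes were mostly below 0, with none called. Sf3b5, the smallest subunit of SF3b, was lowest at -0.88 and -0.84 (mean -0.86 ± 0.03). Its levels were 9.59 and 9.58 in Lgr5-high against 8.71 and 8.73 in Lgr6-high. Sf3b2, which contacts RNA near the branch point, had a mean of -0.50 ± 0.15. For Sf3a3 the arrays disagreed, at -1.001 on array 1 and 0.04 on array 2.

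Of the 3 remaining measured SF3 genes, Sf3b3 had -0.34 ± 0.25 and Sf3a1 -0.23 ± 0.23. The measured probes of Sf3b3 ranged from -0.34 to 0.10. By the brightest probe Sf3b4 was alone above 0, at 0.13 ± 0.08. Of the 6 SF3 genes, 5 had a mean below 0 and 4 were below 0 on both arrays. The largest SF3b subunit, Sf3b1, which holds the branch point adenosine, was among the members without a measured probe, as was Sf3a2.

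The SR genes divided. Of the classical SR proteins, which pair RNA recognition motifs with a domain of arginine and serine repeats, 7 of 8 were measured, with a median of 0.21 over genes on both sides of 0. The lowest was Srsf9, at -0.57 on array 1 and -1.18 on array 2 (mean -0.88 ± 0.43). Srsf1, formerly SF2/ASF and one of the best studied activators of exon inclusion, had -0.96 and -0.58 (mean -0.77 ± 0.27). Its levels were 9.28 and 9.38 in Lgr5-high against 8.32 and 8.81 in Lgr6-high. Both genes were lower in Lgr6-high on each array, below 2-fold in the mean.

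On the other side lay Srsf5 and Srsf2. Srsf5 had 0.43 and 0.76, with a mean of 0.59 ± 0.24, and was above background in Lgr5-high on only 1 array. Its ratio varied with the processing, from 0.26 with normexp on all spots to 0.93 with median centring and 1.69 with the scanner software's ratios, and the cause was not tested. Srsf2, also called SC35 and widely used to mark nuclear speckles, had 0.76 and 0.22 (mean 0.49 ± 0.38), and its 3 measured probes ranged from 0.17 to 0.57.

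The remaining classical members were near 0 or unstable between arrays. Srsf6 had a mean of 0.27 ± 0.08 and Srsf4 of -0.12 ± 0.01, which became 0.02 with median centring. Srsf7, a shuttling SR protein with a zinc knuckle, gave -0.40 on array 1 and 0.82 on array 2, so that its mean of 0.21 has an SD of 0.87 and no direction. Its other measured probe lies upstream, shares 20 bases with that probe and gave 0.14, so the pair is not independent. The shared stretch, in capitals, stands at the 3′ end of the upstream probe (0.14) and at the 5′ end of the downstream probe (0.21), of which 30 bases each are shown because the probes are nominally separate.

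Srsf7 upstream probe, last bases: ttgttgaatgTATTAACATCTTATGGTCTG
Srsf7 downstream probe, first bases: TATTAACATCTTATGGTCTGaaaatgtggg

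A further 7 measured genes carried an SR-type name on the array without being classical SR proteins, and their median was 0.11. Scaf11, a partner of SR proteins and of RNA polymerase II, had 0.28 ± 0.39. Srek1ip1, which interacts with the SR-related protein Srek1, was lowest among them at -0.43 ± 0.09, and was above background in Lgr6-high on 1 array only. Srsf11 was discordant between arrays at -0.98 and 0.61, and its other measured probe gave 0.35 ± 0.12. Tra2b, an activator of exons with purine-rich enhancers, measured 0.18 ± 0.08, and Clasrp, Sfswap and Scaf4 had means of 0.21, 0.11 and -0.11.

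The hnRNP family had no called gene and a median of 0.01, but that median was -0.21 on array 1 and 0.21 on array 2, so the family as a whole had no direction that both dye orientations shared. Its sign also turned when the background model was fitted on all spots, to -0.17. Of the 19 measured genes, 8 were below 0 on both arrays and 6 were above 0 on both, while 38.7% and 33.7% of all measured genes did so.

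Hnrnpu, also called SAF-A and a scaffold of nuclear RNA and chromatin, was highest at 0.97 and 0.68 (mean 0.82 ± 0.20). Its levels were 11.27 and 11.08 in Lgr6-high and 10.31 and 10.40 in Lgr5-high. Hnrnpdl had 0.44 and 1.06 (mean 0.75 ± 0.44), Hnrnpd (AUF1, which binds AU-rich elements of unstable mRNAs) 0.28 and 0.83 (mean 0.56 ± 0.39), and Hnrnpk, which binds C-rich sequences, 0.34 and 0.72 (mean 0.53 ± 0.27). All 4 were higher in Lgr6-high on each array, by less than 2-fold in the mean. Hnrnpk took the opposite sign, -0.33, when the background model was fitted on all spots.

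At the other end, Hnrnpa1, a repressor of exon inclusion that competes with Srsf1, had -1.26 and -0.68, a mean of -0.97 ± 0.41 just outside the rule. Its levels were 10.20 and 10.13 in Lgr5-high and 8.95 and 9.44 in Lgr6-high. Hnrnpa2b1, its close relative, had -0.60 and -0.79 (mean -0.69 ± 0.13). Hnrnpul1 gave -0.56 ± 0.43, and Hnrnpl, which binds CA-rich repeats, -0.56 ± 0.03.

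By subfamily, the 7 measured genes of the A, B and D types had a median of -0.27, or -0.08 with the scanner's ratios. By their brightest probes 5 were below 0 on both arrays, with Hnrnpd and Hnrnpdl above 0. Hnrnpa1, Hnrnpa2b1 and Hnrnpa3, of these 5, each had another measured probe with a mean above 0. That probe of Hnrnpa3 gave -0.70 on array 1 and 1.41 on array 2, so it has no direction. With the scanner's ratios the brightest probes of Hnrnpa3 and Hnrnpab changed sign between arrays. The other 12 had a median of 0.07. In the reported processing the arrays disagreed most for Hnrnpf, at 0.80 on array 1 and -0.76 on array 2, a mean of 0.02 with an SD of 1.11. With the scanner's ratios Hnrnpf had 0.33 and 0.37. The 100 genes of most similar brightness had median ratios of 0.07 on array 1 and -0.60 on array 2 in the reported processing. The cause of the difference was not tested. The related Hnrnph1 and Hnrnph3 also changed sign between arrays, with means of 0.15 ± 0.50 and 0.13 ± 0.71. Hnrnph2 did not, at 0.19 and 0.42.

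**Figure D3:**
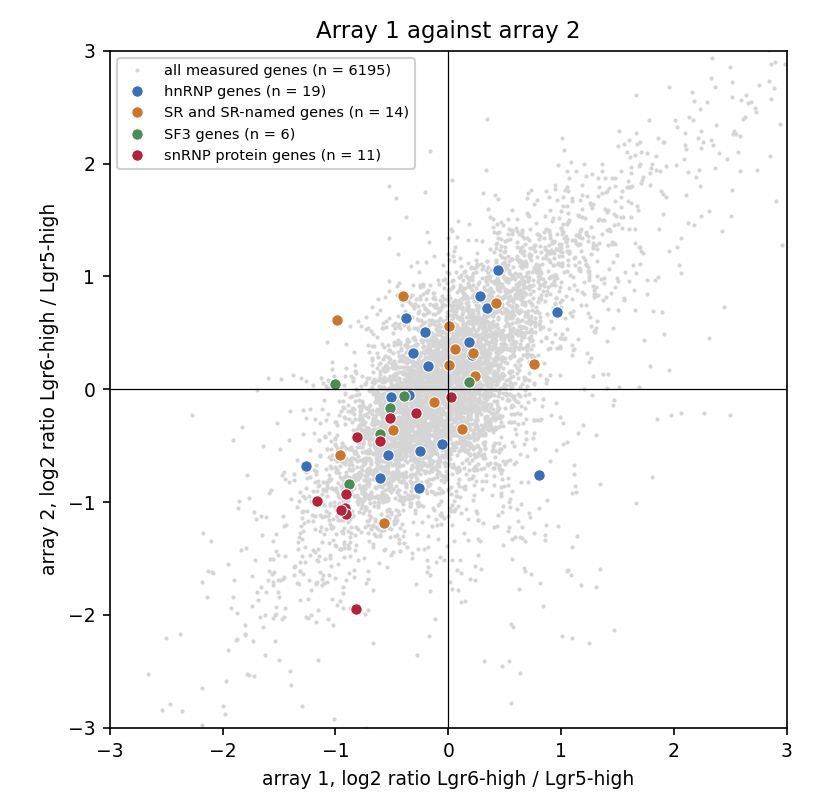
Log2 ratio on array 1 (horizontal) against array 2 (vertical) for all 6195 measured genes in grey and the 50 measured members in colour. Axes end at 3 in both directions, which leaves 55 genes outside; snRNP genes lie in the lower left, and SR and hnRNP genes around the origin with several in the quadrants where the arrays disagree.

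The arrays gave the same sign for 80.0% of the members and 72.4% of all measured genes. The median SD between arrays was 0.22 for members and 0.23 for all genes, and 0.10 for the snRNP genes, 0.19 for SF3, 0.25 for SR and 0.30 for hnRNP genes. Values of the snRNP genes were therefore closer between dye orientations than those of the hnRNP genes.

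For 18 members more than 1 probe was measured, and these show how far the ratio of a gene depends on the stretch that was probed. In 12 genes the probes differed by less than 0.5, and the median gap was 0.32. In 3 genes, all hnRNP, they differed by over 1, and 30 bases of each of these probes are given because the direction of the gene turns on them.

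Hnrnpu, upstream probe: ggggtcagaagccatggagtcagcattatc
Hnrnpu, downstream probe: attgcattaagattctgtactgctcatgat
Hnrnpdl, upstream probe: gtgtaaagaaaccatcttacaggacgacat
Hnrnpdl, downstream probe: aggtatagtatccaagaaagaaatacaatt
Hnrnpa1, brightest probe: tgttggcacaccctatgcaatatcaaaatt
Hnrnpa1, other probe: actgctgtcataaaatttgtttaaaaaatt

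The upstream Hnrnpu probe gave 0.82 ± 0.20 and the downstream one -0.48 ± 0.19. On mm9 the upstream probe is placed at chr1:180259487-180260006 on the minus strand, a span longer than its 60 bases, so the files place it across an intron, and the downstream probe at chr1:180258996-180259055. They differed by 1.30, more than either SD.

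Hnrnpdl behaved alike. Its upstream probe, placed across an intron at chr5:100463956-100465134 on the minus strand, gave 0.75 ± 0.44. The downstream probe at chr5:100462651-100462710 gave -0.55 ± 0.20, and was above background in Lgr6-high on only 1 array. For both genes the probe over the intron was higher in Lgr6-high and the probe nearer the 3′ end was higher in Lgr5-high. For Srsf11 the means were the reverse, at -0.18 ± 1.13 over an intron and 0.35 ± 0.12 nearer the 3′ end. Of the 72 measured member probes, 11 were placed over such a longer span, with means on both sides of 0.

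For Hnrnpa1 the brightest probe, at chr15:103075254-103075313 on the plus strand, gave -0.97 ± 0.41, whereas the other at chr15:103076785-103076844 gave 0.05 ± 0.05. The probes of Hnrnpa2b1 were 0.92 apart, at -0.69 and 0.22. Hnrnpa1 has many processed copies in the mouse genome, and signal from near-identical copies cannot be told apart from that of the gene. The direction of these 4 hnRNP genes is therefore that of the brightest probe only. The same holds for Hnrnpa3 (probes from -0.52 ± 0.17 to 0.36 ± 1.49), Srsf11 (-0.18 and 0.35) and Sf3b3 (-0.34 to 0.10). No snRNP gene had measured probes of opposite sign.

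**Figure D4:**
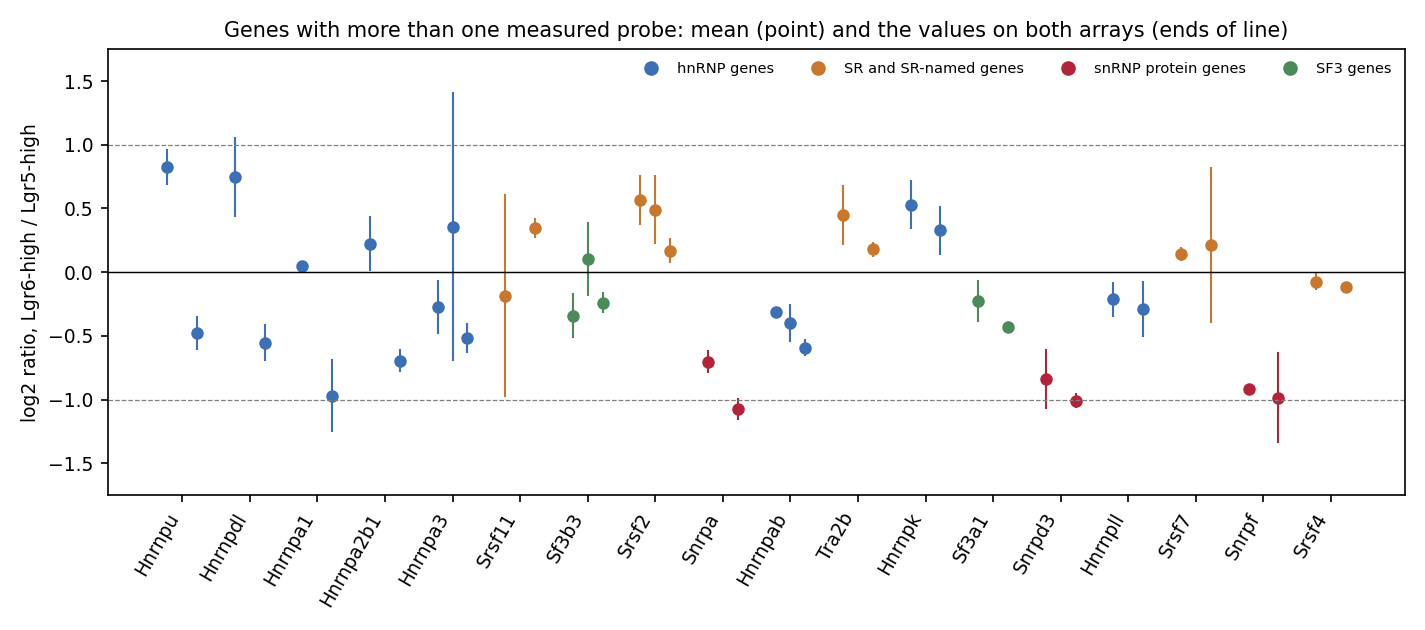
Mean log2 ratio (points) and the values on both arrays (line ends) of every measured probe in the 18 members with more than 1, placed from 5′ to 3′ within each gene where the probes share a transcript. Hnrnpu, Hnrnpdl and Hnrnpa1 at the left have gaps over 1, and the 3 snRNP genes among the 18 have all probes below 0.

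The promoters of the 4 called snRNP genes are shown since these genes lay on the same side. RefSeq entries of build GRCm38.p6 matched 52 of the 59 members by symbol. Each line gives the 150 bases before the start, from the most upstream start where a gene has several. The motifs searched on both strands in that window numbered 5, and matches are in capitals: CCGGAAG (bound by ETS factors), CCAAT (the CCAAT box), GGGCGG (the GC box bound by Sp1), TGACGTCA (the cAMP response element) and TATAAA (the TATA box). No printed matches overlap.

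Snrpg: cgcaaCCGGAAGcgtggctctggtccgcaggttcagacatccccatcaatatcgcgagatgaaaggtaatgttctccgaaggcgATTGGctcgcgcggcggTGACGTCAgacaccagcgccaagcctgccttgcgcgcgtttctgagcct
Snrpa: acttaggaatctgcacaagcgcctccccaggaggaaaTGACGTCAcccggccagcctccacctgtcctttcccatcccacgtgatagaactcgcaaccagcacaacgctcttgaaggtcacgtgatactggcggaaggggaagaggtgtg
Snrpd3: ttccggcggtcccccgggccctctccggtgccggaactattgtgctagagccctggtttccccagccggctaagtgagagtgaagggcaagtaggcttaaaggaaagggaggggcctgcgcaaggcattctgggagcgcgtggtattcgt
Snrpc: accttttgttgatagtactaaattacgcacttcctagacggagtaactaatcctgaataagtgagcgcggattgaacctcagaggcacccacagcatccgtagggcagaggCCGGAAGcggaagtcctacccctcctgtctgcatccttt

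These windows are chr6:86371390-86371539 on the plus strand for Snrpg, chr7:27196272-27196421 on the minus strand for Snrpa, chr10:75517892-75518041 on the plus strand for Snrpd3 and chr17:27839937-27840086 on the plus strand for Snrpc. None of the 5 motifs stood in all 4 windows, and Snrpd3 held none. CCGGAAG stood in Snrpg and Snrpc, and TGACGTCA in Snrpg and Snrpa. Over all 32851 starts of the RefSeq table, 5.53% held CCGGAAG and 1.36% TGACGTCA, and among the 14 snRNP starts 3 and 2 did.

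The motif counts by family are given as a description, with no test. CCGGAAG occurred in 5 of 7 SF3 starts, 7 of 24 SR starts and 2 of 27 hnRNP starts. CCAAT occurred in 15 of 27 hnRNP starts, 4 of 24 SR starts, 3 of 14 snRNP starts and 2 of 7 SF3 starts, compared with 24.5% of all starts. GGGCGG occurred in 17 of 24 SR starts, 15 of 27 hnRNP starts, 3 of 14 snRNP starts and 2 of 7 SF3 starts, compared with 28.6% of all starts. TATAAA was found at 0 snRNP and 0 hnRNP starts, 3 of 24 SR starts and 1 of 7 SF3 starts, compared with 7.57% of all starts. A match is a description of the letters only, and several starts of a gene can share bases.

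Other parts of the splicing pathway were read from lists of known genes. Of 59 further spliceosome genes, 42 were measured, with a median of -0.18. None was called higher in Lgr6-high and 4 of the 42 were called higher in Lgr5-high, against 4.79% of all genes. They were Snrnp25 of the minor spliceosome at -1.46 ± 0.21, Lsm7 at -1.40 ± 0.40, Ppih, a cyclophilin of the U4/U6.U5 particle, at -1.29 ± 0.03, and Lsm4 at -1.07 ± 0.27. The Lsm proteins form a ring like that of the Sm proteins around U6 RNA or around decaying mRNAs. Chosen after their values were seen, the 7 measured Lsm genes had a median of -0.88, with 5 below 0 and a range from -1.40 to 0.35. Their median lay between -1.13 and -0.57 under the alternatives.

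Genes that load the Sm ring onto RNA were read apart. Of 16 genes of snRNP assembly (the SMN complex and its partners), 8 were measured with a median of -0.18, 7 were below 0 and 0 were called. With the scanner's ratios their median was -0.54 and 2 were called higher in Lgr5-high, against 15.5% of all genes. Of 16 genes for the import of SR proteins or the export of mRNA on the array, 10 were measured, with a median of -0.25 and 0 called. In the reported processing both medians were closer to 0 than the snRNP median of -0.92.

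All 3 measured kinases of SR proteins, of 9 on the array, were called higher in Lgr6-high, against 7.22% of all measured genes. Clk3 measured 1.499 and 1.19 (mean 1.34 ± 0.22), Clk4 1.24 and 1.02 (mean 1.13 ± 0.16) and Clk1 0.71 and 1.54 (mean 1.12 ± 0.59). These CDC-like kinases phosphorylate the arginine and serine repeats of SR proteins and thereby release them from speckles. Of the 14 measured SR genes 0 were called, against 12.0% of all measured genes in either direction. Without background subtraction 1 of these kinases was called, and 2 with the mean of all measured probes of a gene. With normexp on all spots 0 were called and the kinase median was 0.77. With median centring 0 were called although the median was 1.25, since the call also needs 0.5 on each array.

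Of 34 measured splicing regulators outside the member families, 3 were called higher in Lgr6-high and 2 higher in Lgr5-high, against 7.22% and 4.79% of all measured genes, with a median of 0.07. With normexp on all spots the counts were 0 and 2, and with median centring 0 and 0. The first were Ddx5, an RNA helicase, at 1.45 ± 0.28, Esrp2, an epithelial splicing regulator, at 1.12 ± 0.26, and Tra2a, the paralogue of Tra2b, at 1.07 ± 0.73. The second were Ybx1, a Y-box protein of mRNPs, at -1.39 ± 0.38 and Nono, a paraspeckle protein, at -1.08 ± 0.22. Esrp2 was above background in Lgr5-high on only 1 array, so it passed the filter through Lgr6-high alone. With both populations above background on both arrays, 28 regulators were left. Of these, 2 were called higher in Lgr6-high and 2 higher in Lgr5-high, against 7.57% and 4.95% of all genes. The median of this list ranged from -0.03 to 0.18 under the alternatives.

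Cell cycle genes had more signal in the Lgr5-high RNA, and immediate early genes, which respond to stimulation or handling of cells, more in the Lgr6-high RNA. Of the 23 measured cell cycle genes of 25, 14 were called higher in Lgr5-high, against 4.79% of all measured genes. All 23 had a mean below 0, and their median was -1.22. Their levels ran from 6.40 to 10.68 in Lgr6-high and from 7.30 to 13.27 in Lgr5-high. Some of these genes passed the filter through Lgr5-high only, which favours a ratio below 0. With both populations above background on both arrays, 17 cell cycle genes were left, with a median of -1.45. Of these, 12 were called higher in Lgr5-high, against 4.95% of all genes by that filter. Of 17 measured immediate early genes, 16 were called higher in Lgr6-high, against 7.22% of all measured genes. This list had a median of 1.95, with levels from 8.62 to 15.10 in Lgr6-high and from 7.14 to 12.52 in Lgr5-high. The part of either list in the ratios of the snRNP, hnRNP, SR or kinase genes was not tested.

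The sorted cells were checked against markers of skin cell types. All 8 keratinocyte markers and all 6 bulge markers were detected, that is, well above background on at least 1 array, in both populations, with 4 keratinocyte markers called higher in Lgr6-high and 5 of 6 bulge markers, Lgr5 among them, higher in Lgr5-high. Of 5 measured upper follicle markers 4 were called higher in Lgr6-high. Lgr6 itself was detected in both populations on at least 1 array but did not pass the filter, so its ratio checks nothing here. Fibroblast markers were detected for 7 of 8 genes in Lgr5-high and for 3 in Lgr6-high. Of the 5 measured, 4 were called higher in Lgr5-high, with levels from 6.53 to 9.96 there and from 5.51 to 7.49 in Lgr6-high. These 5 passed the filter through Lgr5-high only, so their direction was largely set by the filter. With both populations above background on both arrays, no fibroblast marker was left. By that filter 3 of 4 bulge markers and 3 of 4 upper follicle markers were called, in the directions above. Endothelial markers were detected for 2 of 6 genes in Lgr5-high and 1 in Lgr6-high, leukocyte markers for 3 of 6 and 1, and melanocyte markers for 2 of 6 and 0. The part of RNA from such cells in the members' ratios was not tested, and fewer cells of a type cannot be told apart from less RNA per cell in sorted pools.

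The depth of an array is set by its signal over background, and the number of arrays limits precision. Well above background were 31.6% and 33.3% of probe spots in Cy3 on arrays 1 and 2, and 15.3% and 16.2% in Cy5. No member spot was saturated or marked as an outlier. Among the brightest 62 genes of the array, which hold no member, the median ratio was 0.67 on array 1 and -1.45 on array 2. The arrays thus differed for the brightest genes, and array and dye orientation cannot be told apart.

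**Figure D5:**
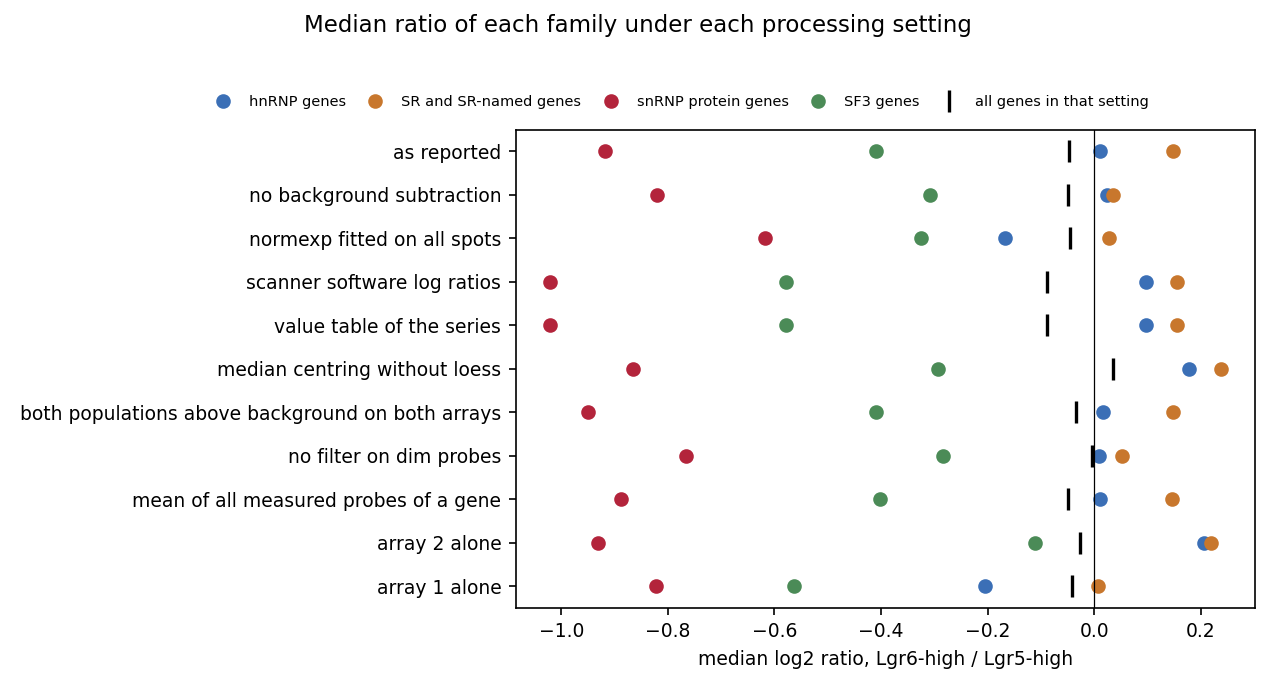
Median log2 ratio of each family (points) and of all genes (black ticks) under the reported processing and each alternative. The snRNP median lies between -1.02 and -0.62 throughout, whereas the hnRNP median is on either side of 0.

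Across the processing alternatives the snRNP median stayed between -1.02 and -0.62, and at least 10 of the measured snRNP genes were below 0 in each. How many were called was less stable. With the scanner software's own ratios 6 snRNP genes were called, where 15.5% of all genes were called in that direction. With median centring in place of loess 0 were called, against 0.92% of all genes. The mean ratios stayed near those reported, at -1.32 for Snrpg, -1.02 for Snrpa, -0.96 for Snrpc and -0.94 for Snrpd3. The sign of the family's median did not turn in any of the settings tried.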

How the data were processed

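Linear spot and local background intensities in Cy3 and Cy5 were deposited by the authors, per the file headers from Agilent Feature Extraction 10.5.1.1 (9.5.3 per the submitters' processing notes), and the software's log10 ratio of Cy5 over Cy3. The deposited value table holds the same log10 ratios with array 2 turned, both column medians being 0.

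Intensities were background-corrected with normexp (limma 3.58.1, R 4.3.3, offset 50, fitted on spots without an outlier mark), normalised by loess within each array with the 1639 controls at weight 0, and given the sign of Lgr6-high over Lgr5-high (log2) from the labelled dyes. Before turning, the arrays' ratios correlated at -0.447 over probe spots. Levels per population used Aquantile scaling. Marked spots (139 and 204) were left out and spots of a probe averaged. The steps were run on simulated data, where 0 of 200 changed genes took the wrong direction. That count covers the sign of a ratio only, not its size or the calls. The planted changes were larger than any member's mean ratio, and the planted dye bias did not vary with intensity. The count therefore does not bear on smaller ratios such as those of the members.

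Named were every called member, the 4 highest and 4 lowest genes of each group (snRNP and SF3 as one), genes whose probes differed by over 1, all measured Sm, classical SR and SF3 genes, and at most 6 called genes of each other list. Some further members are named to account for the families. Members, lists and motifs were chosen with earlier results of these data known, and lists were described by counts and medians with no test.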

Additional observations from a re-analysis of the deposited data

How the results depend on the processing

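Members called higher in Lgr5-high numbered 4 as reported, 3 without background subtraction, 2 with normexp fitted on all spots, 2 with the mean of all measured probes of a gene, 0 with median centring without loess (where Snrpg, Snrpa, Snrpc and Snrpd3 still had mean ratios of -1.32, -1.02, -0.96 and -0.94), and 10 with the scanner software's ratios or the value table. Members called higher in Lgr6-high were 0 as reported and 2 with the scanner's ratios or the value table (Hnrnpu and Srsf5), where the snRNP and SF3 median was -0.85 in place of -0.53. With 1 array left out, the counts ranged from 3 to 5 in Lgr5-high and from 0 to 1 in Lgr6-high: array 1 alone called Snrpa, Hnrnpa1 and Sf3a3, and array 2 alone Snrpg, Snrpd2, Snrpd3, Snrpc and Srsf9, with Hnrnpdl the other way. Of all genes, array 1 alone called 4.99% in Lgr5-high and 7.09% in Lgr6-high, and array 2 alone 7.94% and 9.67%. Only Snrpa and Snrpg stayed called with normexp on all spots, and only Snrpc and Snrpg with the mean of probes. The causes were not tested.

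Over all genes, calls in Lgr6-high and Lgr5-high numbered 447 and 297 as reported, 212 and 204 without background subtraction, 124 and 151 with normexp on all spots, 958 and 958 with the scanner's ratios, and 134 and 57 with median centring. The share of calls in Lgr6-high was 60.1%, 51.0%, 45.1%, equal shares and 70.2% in that order. limma on the 2 arrays with Benjamini-Hochberg adjustment called the same 4 members, the only ones that reached its 2-fold minimum. Its spread is that between hybridisations. None of the 4 called members changed direction in the alternatives run. The hnRNP median, Hnrnpk, Snrpb2, Srsf4, Srsf7, Srsf11 and Sf3a3 took the other sign in at least 1 of them. Members outside the naming rule were not followed through each alternative. Of those, Hnrnpf, Hnrnph1, Hnrnph3, Hnrnpc, Hnrnpr and Scaf4 took the other sign on 1 array alone. Each ratio pairs the populations within an array, so the limma fit is already the paired one. Dim probes limit the 9 unmeasured members, for which no ratio is given.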
